A study of Mus musculus with 4 samples.

Results

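The BCL-2 family genes described here are Bcl2, Bcl2l1, Mcl1, Bax, Bak1, Bcl2l11, Bbc3, Pmaip1, Bid and Bad, 10 genes matched by symbol among the 23285 genes measured. All 10 had a mean level of at least 1 FPKM (fragments per unit of transcript length, relative to library size) and so were among the 10224 genes tested. The cells were mouse DN3 thymocytes, CD4-negative and CD8-negative precursors that rearrange the T cell receptor beta genes, labelled C57BL/6. They descended from fetal liver donor cells placed in irradiated recipients and were sorted 16 weeks after the transfer. Donors were wild type (WT, 2 libraries) or carried Gata3(g/g), a genotype labelled as a hypomorph of the transcription factor gene Gata3 (2 libraries). The sources used here give no age, no word on pooled recipients and no marker that told donor cells from host cells. They also do not say whether replicates were separate animals, so p-values measure only the spread between these libraries, which may be technical. Replicate 1 of each genotype shared a sequencing run, called run 1, and replicate 2 of each another, called run 2.

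BCL-2 family proteins decide whether the mitochondrial outer membrane is opened during apoptosis. BCL-2, BCL-XL (from Bcl2l1) and MCL-1 hold the membrane closed, BAX and BAK form the pores, and BH3-only proteins such as BIM (from Bcl2l11), PUMA (Bbc3), NOXA (Pmaip1), BID and BAD start the process by binding the others through a short BH3 helix. In thymocytes, interleukin 7 signalling sustains BCL-2 and MCL-1, while PUMA and NOXA are known as products of p53 target genes, and precursors that fail to make a functional receptor beta chain die at the DN3 stage.

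The BH3 stretch is the sequence that BH3-only members share, so its coding bases are shown for the 4 of them whose sequence is printed here and for Bmf, a BH3-only relative that enters the results further on. Sequences are from GENCODE M21 transcripts on GRCm38 (the same assembly as mm10), 36 bases in frame on the coding strand, and capitals mark the codons of the core pattern: a leucine, then, after 3 further residues, a small residue (glycine, alanine or serine) and an aspartate. A search of each whole reading frame found that pattern 1 time in each gene.
Bbc3 (chr7:16313764-16313799, plus strand, exon 3): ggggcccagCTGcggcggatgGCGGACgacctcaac
Bcl2l11 (chr2:128147141-128147176, plus strand, exon 3): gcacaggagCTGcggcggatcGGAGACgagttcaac
Bid (chr6:120897289-120897324, minus strand, exon 4): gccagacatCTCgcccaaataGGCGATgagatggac
Bad (chr19:6950783-6950818, plus strand, exon 3): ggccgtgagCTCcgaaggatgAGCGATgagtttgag
Bmf (chr2:118545100-118545135, minus strand, exon 4): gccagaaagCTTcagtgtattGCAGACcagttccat
The values below are per gene, so they do not show which spliced form, with or without this stretch, was counted.

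Gata3 itself stood at 62.4 and 58.5 FPKM for WT against 120 and 96.1 FPKM for the libraries labelled Gata3(g/g), above WT although the label reads hypomorph, so every direction given here rests on the labels. Libraries held 14331705 to 26901913 fragments. All 10 DN3 and pan-T markers were present, with summed levels of 3641 and 4024 FPKM in WT and 4004 and 4277 FPKM in Gata3(g/g). No marker list had a gene at 0 in all libraries. Below 1 FPKM in every library were 5 of 8 B cell, 6 of 9 myeloid and 5 of 7 stroma markers. The same held for 4 of 8 natural killer and gamma-delta T cell, 1 of 6 double-positive stage and 1 of 7 erythroid markers. The runs differed strongly: 10 immediate-early and heat-shock genes summed to 664 and 471 FPKM in the WT and Gata3(g/g) libraries of run 1 against 42.6 and 53.5 FPKM in run 2, and 7 erythroid markers to 1.35 and 2.33 FPKM against 460 and 588 FPKM. Genotypes were therefore compared within run, with the run as a block in edgeR's quasi-likelihood test, and differences are log2 fold changes of Gata3(g/g) over WT. Where a pair of values is given for a genotype, run 1 comes first.

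In this comparison 2 of the 10 members passed at an adjusted p under 0.05, both low-level BH3-only genes and in opposite directions: Bbc3 (PUMA) fell and Pmaip1 (NOXA) rose. Both met the filter of a mean of 1 FPKM only through the genotype where they were higher. Mean FPKM was 1.83 in WT and 0.743 in Gata3(g/g) for Bbc3. For Pmaip1 it was 0.915 in WT and 1.915 in Gata3(g/g). The 8 others, which include every prosurvival and pore-forming member, did not pass and lay within 0.36 of 0 on the log2 scale. Across all tested genes the same rule called 6.9% (3.9% higher and 2.99% lower), so with 10 members a count of 2 is no result about the family. Both calls depended on the test. Without the run block edgeR called 0 of the 10 and 0.0% of all genes; at an unadjusted p under 0.05 it counted 0 members and 3.84% of all genes. With the block DESeq2 called 0 of the 10 and 4.08% of all genes, and limma 0 of the 10 and 0.176%. The authors' deposited table has 0 members at a q-value under 0.05, where 4.1% of its tested genes are. The FPKM of the genotypes did not overlap for 2 members, Bcl2 and Bbc3, against 29.0% of all tested genes.

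**Figure D1:**
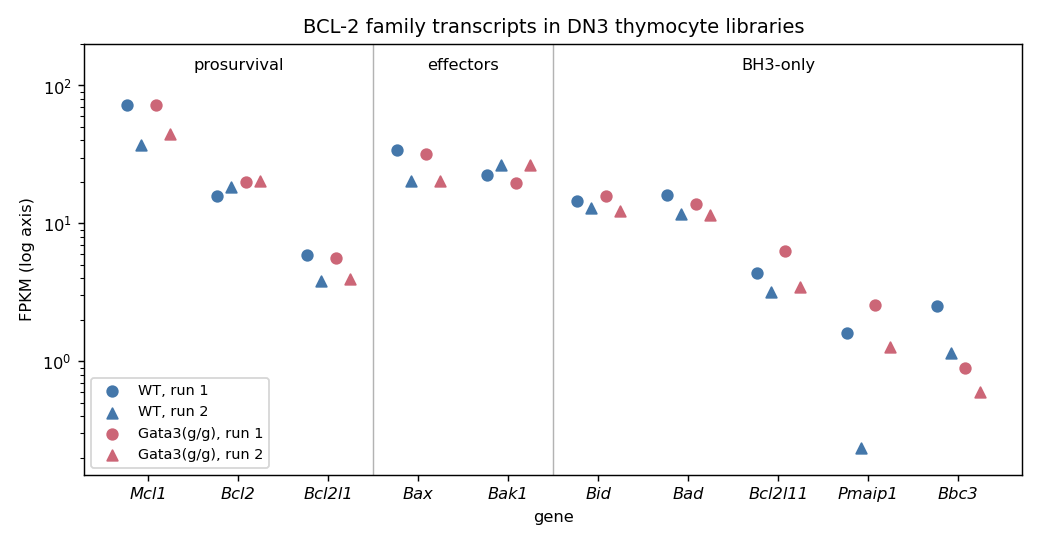
FPKM (log axis) of each BCL-2 family gene in each library, with circles for run 1 and triangles for run 2, blue for WT and red for Gata3(g/g), grouped by role. Mcl1 is highest in every library, and Pmaip1 and Bbc3 are the lowest, with WT replicate 2 at 0.235 FPKM for Pmaip1.

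Mcl1, which encodes a short-lived prosurvival protein needed by T cells at most stages, was the most abundant member in all 4 libraries. In run 1 it measured 71.9 FPKM for WT and 72.6 for Gata3(g/g), and in run 2 it measured 37.3 and 44.4 FPKM. The genotypes overlapped and the runs did not. The log2 fold change was 0.14 ± 0.128 (SE; adjusted p = 0.593, edgeR with the block), with a 95% interval from −0.13 to 0.41. Run 2 minus run 1, in log2 CPM, was −0.91 for WT and −0.70 for Gata3(g/g), where the median absolute run difference of all tested genes was 0.37 and 0.28.

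Bcl2, the founding prosurvival gene and a target of interleukin 7 signalling, stood at 15.8 and 18.3 FPKM in WT and at 20.1 and 20.3 FPKM in Gata3(g/g). Both Gata3(g/g) libraries lay above both WT libraries, an order that 14.2% of all tested genes had and no other member did. The log2 fold change was 0.27 ± 0.126 (SE, n = 2 libraries per genotype) and did not pass (adjusted p = 0.235 by edgeR with the block). It was 0.39 in run 1 and 0.15 in run 2, counted as a difference of log2 CPM. Bcl2 rests on 3421 to 7031 fragments, and an antisense gene, D630008O14Rik, overlaps its exons.

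Bcl2l1, whose long form BCL-XL protects thymocytes mainly at the later double-positive stage, was the least abundant prosurvival member, at 5.92 and 3.82 FPKM in WT and 5.65 and 3.96 FPKM in Gata3(g/g). The genotypes overlapped, and the log2 fold change of −0.01 ± 0.169 (SE) had a 95% interval from −0.36 to 0.35; its sign turned without TMM scaling (0.04).

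The pore-forming genes Bax and Bak1 were close to each other in level. Bax measured 33.8 and 20.3 FPKM in WT and 31.9 and 20.3 FPKM in Gata3(g/g), while Bak1 measured 22.6 and 26.5 FPKM in WT and 19.7 and 26.4 FPKM in Gata3(g/g). Both overlapped between the genotypes, but they moved in opposite directions between the runs: in each genotype Bax was higher in run 1 and Bak1 higher in run 2. Bax was the more abundant of the 2 in both libraries of run 1 and Bak1 in both libraries of run 2. The log2 fold changes between genotypes were −0.04 (95% interval −0.34 to 0.26) for Bax, whose sign turned without TMM scaling, and −0.10 (−0.38 to 0.18) for Bak1. The exons of Bax overlap those of Gm45808 on the same strand and the exons of Bak1 those of Ggnbp1 on the opposite strand, and whether counting used the strand is not given in the sources used here, so fragments may be shared.

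Bid and Bad were the most abundant BH3-only members. Bid, which is cleaved by caspase 8 and links death receptors to mitochondria, stood at 14.4 and 12.9 FPKM in WT and 15.7 and 12.3 FPKM in Gata3(g/g). Bad, which is held inactive by phosphorylation downstream of growth factors, stood at 16.0 and 11.8 FPKM in WT and 13.7 and 11.4 FPKM in Gata3(g/g). Neither separated the genotypes, with log2 fold changes of 0.03 (95% interval −0.26 to 0.33) and −0.13 (−0.44 to 0.18). Exons of Bid overlap Bcl2l13 and those of Bad overlap Gpr137, each on the opposite strand.

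Bcl2l11 encodes BIM, the BH3-only protein that removes thymocytes during selection and after cytokine loss. It measured 4.35 and 3.19 FPKM in WT and 6.29 and 3.47 FPKM in Gata3(g/g). Gata3(g/g) replicate 1 was the highest library, and the other 3 were not separated by genotype. The log2 fold change was 0.36 ± 0.147 (SE; adjusted p = 0.166, edgeR with the block), 0.55 in run 1 and 0.15 in run 2, the largest difference among the 8 members that did not pass. Its unadjusted p was 0.0259 and that of Bcl2 was 0.0488, both by edgeR with the block, a level that 20.9% of all tested genes reached.

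Bbc3, which encodes PUMA, an activator of apoptosis that can bind every prosurvival family protein, fell. In run 1 it measured 2.51 FPKM (180 fragments) for WT and 0.890 FPKM (85 fragments) for Gata3(g/g), and in run 2 1.15 FPKM (57 fragments) and 0.596 FPKM (38 fragments). Both Gata3(g/g) libraries were below both WT libraries, as for 14.8% of tested genes. The log2 fold change was −1.26 ± 0.333 (SE; adjusted p = 0.0301, edgeR with the block), 0.419 times the WT level, with a 95% interval from −1.96 to −0.55. It was −1.45 in run 1 and −0.93 in run 2. The call was lost without the block (−1.29, adjusted p = 1.0 by edgeR), by DESeq2 (−1.24, adjusted p = 0.172) and by limma on log2(FPKM + 1) (−0.66, adjusted p = 0.25). Without WT replicate 1 the log2 fold change was −0.65 (adjusted p = 0.807, edgeR without the block). In the authors' deposited table its q-value was 0.0847.

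The Bbc3 locus lies at chr7:16308393-16318205 on the plus strand in GENCODE M21. Because Bbc3 was the member that fell in a study of a GATA factor, the 250 bases before its most upstream start among the 3 RefSeq windows (RefSeq, GRCm38.p6, chr7:16309333-16309582, plus strand) are printed with each CpG in capitals.
Bbc3 promoter: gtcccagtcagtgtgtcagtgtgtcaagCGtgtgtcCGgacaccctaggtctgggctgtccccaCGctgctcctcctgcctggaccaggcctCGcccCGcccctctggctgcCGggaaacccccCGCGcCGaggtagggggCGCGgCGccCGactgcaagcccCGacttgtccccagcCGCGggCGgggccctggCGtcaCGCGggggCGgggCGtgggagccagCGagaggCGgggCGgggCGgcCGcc
It holds 27 CpGs. Hexamers of the GATA type (AGATAA first, AGATAG second, TGATAA as the third and TGATAG last) were searched on both strands in windows of 300 bases around each annotated start, 250 before and 50 after. None of the 3 Bbc3 windows holds a match. Over the 15 windows of 9 members (there was none for Pmaip1) matches fell in 1 window of Bcl2l1 and 1 of Bid. Of all 32851 RefSeq windows 29.8% hold 1 or more. The Bbc3 windows are 74.7% to 78.0% G or C and hold 30 to 39 CpGs, where the median of all windows is 7 CpGs. The share over all windows is therefore not matched to them in base composition. A match or its lack describes these letters only. The GENCODE start of the Bbc3 locus lies upstream of all 3 Bbc3 windows, so the bases around it were not searched.

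Pmaip1, which encodes NOXA, a BH3-only protein that mainly binds and destabilises MCL-1, rose. In run 1 it measured 1.59 FPKM (157 fragments) for WT and 2.56 FPKM (335 fragments) for Gata3(g/g), and in run 2 0.235 FPKM (16 fragments) and 1.28 FPKM (112 fragments). The genotypes overlapped, since WT replicate 1 lay above Gata3(g/g) replicate 2, while within each run the Gata3(g/g) library was higher. The log2 fold change was 1.32 ± 0.350 (SE; adjusted p = 0.0302, edgeR with the block), with a 95% interval from 0.58 to 2.06. It was 0.69 in run 1 and 2.33 in run 2, where WT replicate 2 held 16 fragments. Leaving out a library also takes the run block away, so such a value mixes genotype and run: with WT replicate 2 left out the log2 fold change was 0.29 (adjusted p = 1.0 by edgeR without the block). Without WT replicate 1 it was 3.0 (adjusted p = 0.23). With Gata3(g/g) replicate 1 left out it was 0.48 (adjusted p = 1.0 by edgeR), and neither Bbc3 nor Pmaip1 passed in any of the 4 fits that left out a library, all without the block. The call was lost without the block with all 4 libraries (1.06, adjusted p = 1.0 by edgeR), by DESeq2 (1.46, adjusted p = 0.0713) and by limma on log2(FPKM + 1) (0.67, adjusted p = 0.236). In the authors' deposited table its q-value was 0.0784.

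**Figure D2:**
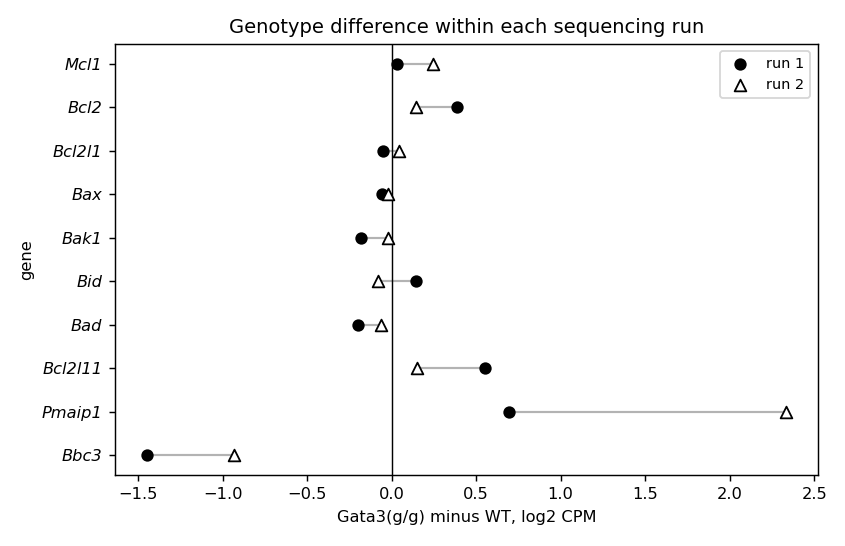
Difference in log2 CPM between the Gata3(g/g) and the WT library of the same run for each member, with filled circles for run 1 and open triangles for run 2. Bbc3 is below 0 in both runs, Pmaip1 is above 0 in both but at 0.69 and 2.33, and 8 of the 10 members have the same sign in both runs, where 64.4% of all tested genes do (7 of the 10 as FPKM ratios, since Bax in run 2 is then 0.00179 on the log2 scale).

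**Figure D3:**
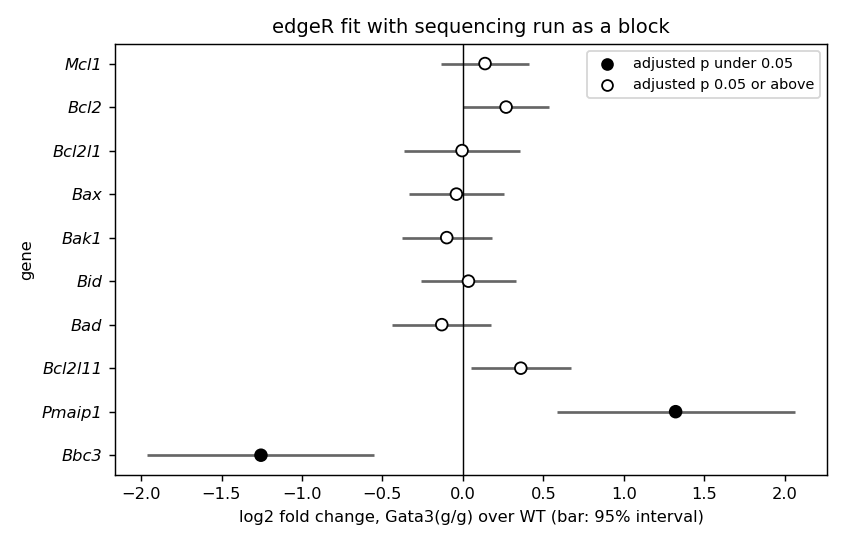
Log2 fold change of Gata3(g/g) over WT for each member by edgeR with the run as a block; bars are 95% intervals and filled points have an adjusted p under 0.05. Only Pmaip1 and Bbc3 are filled, and the intervals of Bcl2l11 and Bcl2 lie just above 0.

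Other transcripts that moved with the genotype give the setting of these 2 calls. Markers said to rise or fall had an adjusted p under 0.05 by edgeR with the block, as 6.9% of all tested genes did. Without the block 0.0% of all tested genes passed, so these marker calls depended on the block too. Of 5 tested double-positive stage markers, 2 rose (Cd8a and Cd8b1), with summed levels of the 6-gene list at 29.6 and 29.6 FPKM in WT and 32.4 and 30.2 FPKM in Gata3(g/g). Cd8a measured 0.674 and 0.592 FPKM in WT and 1.71 and 1.37 FPKM in Gata3(g/g). It met the filter only through the genotype where it was higher. Cd8b1 measured 3.63 and 1.11 FPKM in WT, with 38 fragments in WT replicate 2, and 7.61 and 7.22 FPKM in Gata3(g/g). Of 4 tested natural killer and gamma-delta T cell markers 2 rose and 2 fell. The summed level of the 8 measured was 549 and 529 FPKM in WT and 252 and 219 FPKM in Gata3(g/g). Gzma made up most of the WT sum and carried its fall: WT libraries measured 485 and 463 FPKM, Gata3(g/g) libraries 98.3 and 96.1. Cd163l1 rose instead, with 11.4 and 7.38 FPKM for WT against 54.1 and 42.5 for Gata3(g/g). The lower sum therefore does not describe the list as a whole. Of 3 tested myeloid markers 1 rose (Lyz2), with sums of 12.2 and 50.2 FPKM against 19.5 and 63.5 FPKM. Of 8 tested immediate-early and heat-shock genes 1 rose and 3 fell. Of 6 tested erythroid markers 1 rose (Hba-a2) and of 10 DN3 markers 1 (Il2ra), and none of the 2 tested B cell or 2 tested stroma markers passed. The part of these transcripts in the Bbc3 and Pmaip1 differences was not tested, and in sorted bulk cells fewer cells of a type and less RNA per cell cannot be told apart.

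In FPKM the prosurvival and BH3-only sums differed less between the genotypes than between the runs. For the effectors the genotype difference in run 1 was about as large as the run difference in Gata3(g/g). Prosurvival members (Bcl2, Bcl2l1 and Mcl1) summed to 93.6 and 59.4 FPKM in WT and 98.4 and 68.7 FPKM in Gata3(g/g), effectors to 56.4 and 46.8 against 51.5 and 46.7 FPKM, and BH3-only members to 38.9 and 29.3 against 39.2 and 29.1 FPKM. Within a run the log2 ratios of these sums lay between −0.13 and 0.21, and all 3 sums of FPKM were higher in run 1 than in run 2 in both genotypes; in CPM the effector sum of Gata3(g/g) was 115 in run 1 and 122 in run 2. Bid and Bad supplied 75.2% to 84.4% of the BH3-only sum, and Bbc3 with Pmaip1 10.6% and 4.74% in WT and 8.79% and 6.44% in Gata3(g/g). The ratio of prosurvival to BH3-only FPKM was 2.41 and 2.03 in WT and 2.51 and 2.36 in Gata3(g/g), higher within each run, but in CPM the order turned in run 1 (4.73 in WT and 4.65 in Gata3(g/g)) and not in run 2 (4.69 and 5.22). The FPKM ratio of Bcl2 to Bcl2l11 was 3.65 and 5.74 against 3.19 and 5.86. These are ratios of transcript levels, with 1 library per genotype and run and no test.

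**Figure D4:**
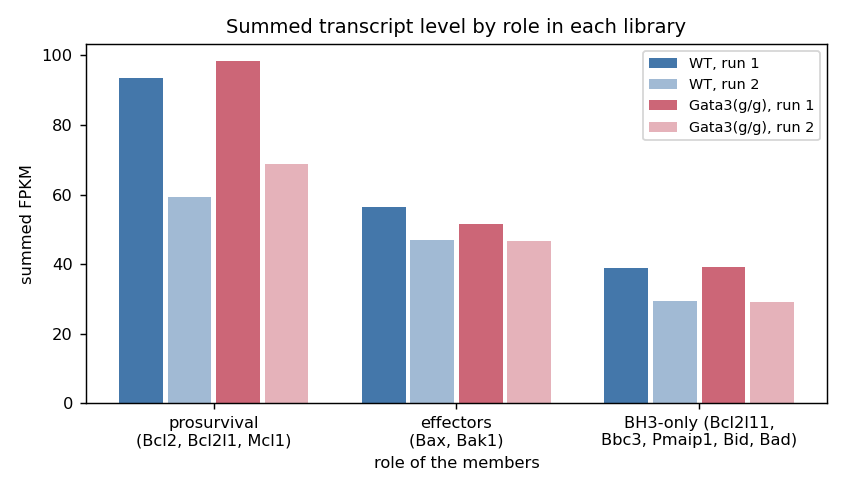
Summed FPKM of the prosurvival, effector and BH3-only members in each library, solid bars for run 1 and pale bars for run 2, blue for WT and red for Gata3(g/g). Within a run the bars of the genotypes are close, and every run 1 bar is taller than its run 2 counterpart.

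Levels of the members also differed between the runs. In 8 of the 10 the level was higher in run 1 in both genotypes, and in Bcl2 and Bak1 it was higher in run 2 in both, where 40.0% and 39.2% of all tested genes had these orders. For 5 members (Mcl1, Bcl2l1, Bax, Bak1 and Bad) the smaller of the run differences exceeded the larger of the genotype differences. The share of all tested genes that met this rule was not counted, so it is no result about the family. No member differed over 2-fold between the runs in both genotypes, as 3.76% of all tested genes did. Pmaip1 came closest, with run 2 minus run 1 at −2.62 for WT and −0.99 for Gata3(g/g) in log2 CPM. The immediate-early and erythroid transcripts described at the outset differed between the runs as well, and their part in the members' run differences was not tested.

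In order of mean FPKM the members ran Mcl1, Bax, Bak1, Bcl2, Bid, Bad, Bcl2l1, Bcl2l11, Pmaip1 and Bbc3. Mcl1 held its place in all 4 libraries. Bax, Bak1 and Bcl2 exchanged places, and Bad stood above Bcl2 and Bid in WT replicate 1 only. Bcl2l1 and Bcl2l11 exchanged places, as did Pmaip1 and Bbc3, so the order within these sets was not the same in every library. Bbc3 was above Pmaip1 in both WT libraries and below it in both Gata3(g/g) libraries. Among all tested genes the mean level of Mcl1 stood at percentile 90.6 and that of Bbc3 at percentile 3.59.

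The genes most like Bbc3 in pattern, by Euclidean distance of centred log2(FPKM + 1) over the 4 libraries, were the amino acid transporter gene Slc7a5 (distance 0.086), Engase (0.131) and the sulfotransferase gene Chst10 (0.148). Slc7a5 measured 34.7 and 22.8 FPKM in WT and 19.3 and 15.9 FPKM in Gata3(g/g), lower in run 2 and lower in Gata3(g/g) as Bbc3 was. For Pmaip1 they were the deubiquitinase gene Otud1 (0.089), the endosomal GTPase gene Rab5b (0.101) and Emb (0.103). Otud1 measured 4.43 and 1.69 FPKM in WT and 6.66 and 4.19 FPKM in Gata3(g/g). Over 4 libraries such distances are a description only. The genes were picked for this likeness, so it is no separate result. The added 1 also shrinks the differences of low-level genes. On that scale the log2 fold change by limma was −0.66 for Bbc3 and 0.67 for Pmaip1, against −1.26 and 1.32 by edgeR, both with the block.

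Around the members, 105 genes of the apoptosis machinery and its regulators were examined in 8 lists. Of the 89 that were tested, 6 rose and 2 fell, 8.99% against 6.9% of all genes, and none passed without the block. The median log2 fold change of the 89 was 0.04, against 0.01 for all tested genes. Among 17 further BCL-2 family genes, 9 were tested and 1 rose, Bmf, a BH3-only gene whose product is bound to the cytoskeleton in healthy cells. Bmf stood at 6.91 and 6.78 FPKM in WT and at 10.2 and 10.1 FPKM in Gata3(g/g), without overlap, and per length it was above Bcl2l11 in each library. Its log2 fold change was 0.57 ± 0.135 (SE; adjusted p = 0.0156, edgeR with the block), 0.58 in run 1 and 0.56 in run 2. The Bmf call held by DESeq2, and was lost without the block (adjusted p = 1.0 by edgeR) and by limma with it (adjusted p = 0.18). The 8 family genes that were not tested, among them the Bcl2a1 copies, Bok and Hrk, had at most 0.405 FPKM in any library.

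Of 15 genes on the path from the interleukin 7 receptor to survival, 4 rose and 1 fell. Of all tested genes 6.9% passed, and the lists here and below were chosen with earlier results of these data known. Il7r, the receptor's alpha chain, rose by 0.70 ± 0.123 (SE, log2), with WT at 28.5 and 32.8 FPKM and Gata3(g/g) at 47.8 and 51.5 FPKM. Cish, a feedback inhibitor induced by STAT5, rose by 0.79 ± 0.201 (SE, log2), with WT at 3.22 and 2.51 FPKM and Gata3(g/g) at 6.15 and 3.88 FPKM. The phosphoinositide 3-kinase subunit genes Pik3r1 (0.56 ± 0.121, SE) and Pik3cd (0.48 ± 0.123, SE) rose as well. Stat5a, a transcription factor that acts below the receptor, fell (−0.57 ± 0.121, SE, log2), with WT at 37.8 and 29.2 FPKM and Gata3(g/g) at 25.7 and 19.4 FPKM. The list median was 0.07. Adjusted p-values by edgeR with the block were 0.00171 for Il7r, 0.0239 for Cish, 0.00917 for Pik3r1, 0.0273 for Pik3cd and 0.00744 for Stat5a. By DESeq2 with the block Il7r, Pik3r1 and Stat5a passed and Cish and Pik3cd did not; without the block and by limma none did.

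Of 7 tested genes of the death receptor arm 1 rose, Tnfrsf1a, which encodes a receptor for tumour necrosis factor. It had WT values of 5.83 and 3.97 FPKM and Gata3(g/g) values of 7.45 and 7.56 FPKM, a log2 fold change of 0.63 with SE 0.175 (edgeR with the block, adjusted p = 0.0389). It did not pass by DESeq2 (adjusted p = 0.193) or at a filter of 5 FPKM (adjusted p = 0.061 by edgeR with the block). Of 18 tested transcription regulators of family genes 1 passed, Myc, a growth regulator that can sensitise cells to apoptosis, which fell (−0.93 ± 0.175, SE, log2; adjusted p = 0.00308, edgeR with the block) with WT at 212 and 325 FPKM and Gata3(g/g) at 133 and 143 FPKM. None of the 14 caspase and apoptosome genes passed, the most abundant being the caspase gene Casp6 at 46.2 and 52.8 FPKM in WT and 50.4 and 45.5 FPKM in Gata3(g/g), nor any of 5 tested inhibitors of apoptosis (Birc5 highest), 7 outer membrane partners (Vdac2 highest) or 15 genes of MCL-1 and BIM turnover (Ywhae highest).

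**Figure D5:**
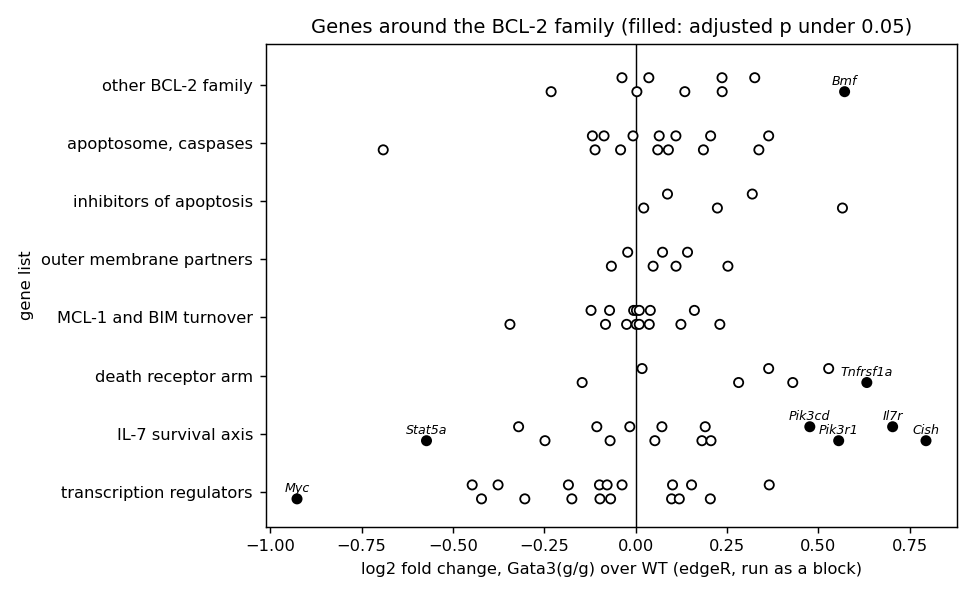
Log2 fold change of Gata3(g/g) over WT for each tested gene of the 8 lists, by edgeR with the run as a block; filled and named points have an adjusted p under 0.05, and the vertical offset within a list only separates points. The filled points are Bmf, Tnfrsf1a, Il7r, Cish, Pik3r1 and Pik3cd to the right of 0 and Stat5a and Myc to the left.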

How the data were processed

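Column-purified, DNase-treated RNA was made into 4 libraries (NuGEN Encore Complete kit, per the labels' protocols) and sequenced. The tools named in the submitters' processing notes are Cuffdiff 2.1.1, Bowtie2 2.1.0 and TopHat2 2.0.8b, on mm10; neither the annotation nor the strand setting is given in the sources used here. Per the file headers the authors deposited an estimated count of fragments and an FPKM value per gene and library, and a table of the genotype comparison (q-value, p-value and log2 fold change of each gene). Of 23285 genes, 3 marked too deep to estimate were left out. Counts were rounded (97.7% to 98.9% lay within 0.01 of a whole number).

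The filter was a mean of 1 FPKM or more, and genes above it were tested by edgeR 4.0.16 (R 4.3.3, TMM factors 0.981 to 1.02, quasi-likelihood F test, two-sided, Benjamini-Hochberg over 10224 genes) with genotype and run, leaving 1 residual degree of freedom, so the spread is largely pooled over genes. The run block comes from the sequence identifiers in the labels, which put equal replicate numbers in the same run; across genes the run differences of the genotypes correlated at 0.754 (Pearson). The SE is the fold change before shrinkage over the square root of F. Within-run differences are log2 CPM with a prior count of 2. DESeq2 1.42.0 and limma 3.58.1 (pseudocounts 1 and 0.1), other filters and scalings, and leaving out each library were alternatives. A count of 3 fragments equals 0.112 to 0.209 CPM, a floor for counting error only.

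The members and lists were chosen with earlier results of these data known. Named are all members, the genes of each list past the threshold (at most 5, by size of change) or else its most abundant gene, Gata3, and the 3 genes most like each called member. Role sums and promoter motifs are described without tests.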

Additional observations from a re-analysis of the deposited data

Results flagged for a closer look

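Among the members and the named genes of the pathway lists, those with genotype differences of opposite sign in the 2 runs are given here. Such signs are common, since 64.4% of all tested genes had the same sign in both runs. Each difference is from 1 library per genotype and run, and the difference between the runs was not tested because no residual degree of freedom is left. In log2 CPM, Bcl2l1 was −0.0485 in run 1 and 0.0419 in run 2, and Bid was 0.145 and −0.0828. Outside the 10 members, Casp6 was 0.146 and −0.232, Birc5 was −0.108 and 0.154, and Vdac2 was −0.251 and 0.12. None of these genes passed the test between genotypes by edgeR with the block.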

How the results depend on the processing

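Without the replicate block the count of genes past the threshold went from 705 to 0, and the calls of Bbc3 (−1.29) and Pmaip1 (1.06) were lost; the labels pair equal replicate numbers by run. With the block DESeq2 called 417 genes (Bbc3 −1.24, Pmaip1 1.46, neither passing), limma 18 with pseudocount 1 (−0.663 and 0.668) and 42 with 0.1 (−1.12 and 1.34). A filter of 5 FPKM gave 348 and does not test Bbc3 or Pmaip1. Without TMM 695 passed, 68.8% of them higher against 56.6%, and the signs of Bcl2l1 (0.0421), Bax (0.00699) and Casp6 (0.00645) turned. Without a filter the caspase list and the outer membrane list had 1 call each. Bbc3 and Pmaip1 kept their calls without TMM and without a filter, in both by edgeR with the block. The interleukin 7 list had 3 calls by DESeq2. The 4 lists with calls had 0 without the block, by limma and with a library left out, and the death receptor list had 0 also by DESeq2 and at 5 FPKM. The BH3-only sum had a mean within-run log2 ratio of 0.149 in CPM, and as log2 FPKM ratios Bax was −0.0851 in run 1 and 0.00179 in run 2, the latter with its sign turned.

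Leaving out 1 library, which 3 libraries allow only without the block, left 1 to 11 genes past the threshold. The log2 fold change then ranged from −1.73 to −0.651 for Bbc3, 0.287 to 3.0 for Pmaip1, 0.0992 to 0.422 for Bcl2, −0.29 to 0.308 for Bcl2l1, −0.283 to 0.622 for Mcl1, −0.424 to 0.345 for Bax, −0.318 to 0.106 for Bak1, −0.101 to 0.763 for Bcl2l11, −0.146 to 0.205 for Bid and −0.331 to 0.0722 for Bad; outside the members, from 0.227 to 0.7 for Pik3cd, 0.444 to 1.1 for Cish, 0.383 to 0.891 for Tnfrsf1a, −0.793 to −0.374 for Stat5a, −1.26 to −0.603 for Myc, 0.554 to 0.575 for Bmf, 0.571 to 0.823 for Il7r, 0.473 to 0.627 for Pik3r1, −0.165 to 0.0692 for Casp6, −0.0728 to 0.118 for Birc5 and −0.382 to 0.249 for Vdac2. The lone library of an arm is assumed to vary like the others. The cause of these shifts was not tested. Depth limits Pmaip1 and Bbc3 most, with 16 and 38 fragments in their lowest library.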
